A study of Mus musculus with 12 samples.

Results

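The genes described here are the 8 members of the mouse H3K9 methylation machinery written Ehmt1, Ehmt2, Suv39h1, Suv39h2, Setdb1, Setdb2, Wiz and Zfp644, out of 55416 gene identifiers counted in bulk RNA-seq of trigeminal ganglia. They were chosen by name, as the enzymes that methylate lysine 9 of histone H3 and the zinc finger partners of G9a. All 8 were counted in every library and all 8 passed the filter on low counts. The question put to them was whether their transcripts changed when Prdm12 was removed from adult mice. PRDM12 is a zinc finger protein of the nociceptor lineage that has a PR domain but is known to act through a methyltransferase partner, G9a.

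The animals were adult C57Bl6 mice, and ganglia were collected 1 month after injection. The 6 inducible knockouts (iKO) all carried Rosa26Cre ERT2; Fl/Fl and received tamoxifen, which lets the Cre fusion enter the nucleus and cut the floxed Prdm12 alleles. Of the 6 controls, 4 also received tamoxifen. Control 1 was Rosa26Cre ERT2; Fl/+, controls 2 and 3 were +/+; Fl/+ and control 4 was Rosa26Cre ERT2; +/+. Controls 5 and 6 were Rosa26Cre ERT2; Fl/Fl, as the iKO animals, and received corn oil in place of tamoxifen. iKO 1 to 3 and controls 1 and 2 were female, and the other 7 animals were male. The Rosa26 promoter is active in most cell types, so the deletion was not limited to neurons, and each library holds RNA of the whole ganglion.

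Total counts per library ran from 13207526 to 24178970, with iKO 2 the shallowest and control 1 the next. Prdm12 itself, the check of the labels, was at 13.2 to 19.2 CPM (counts scaled to the library's total after TMM) in the iKO libraries and at 57.0 to 133 CPM in the controls. The groups did not overlap, and the log2 fold change was -2.64 ± 0.185 (SE, adjusted p = 2.7e-05, edgeR quasi-likelihood test). Sensory neuron markers summed to 6443 to 8216 CPM in controls and 6524 to 8339 CPM in iKO. In whole ganglia, fewer cells of a type and less RNA per cell cannot be told apart. The p-values measure the spread between these animals' libraries.

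Methylation of lysine 9 of histone H3 marks silenced chromatin. G9a (Ehmt2) and GLP (Ehmt1) form a heterodimer that writes the mono- and dimethyl marks of euchromatin, while Suv39h1 and Suv39h2 write the trimethyl mark of pericentric heterochromatin and Setdb1 that of retroelements. Wiz and Zfp644 are zinc finger proteins that bind the G9a/GLP dimer and help to bring it to DNA. In sensory ganglia G9a is known for silencing potassium channel and opioid receptor genes after nerve injury.

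The 250 bases before the start of the 4 G9a complex genes are shown. These genes encode G9a, the enzyme known to partner PRDM12, its partner GLP and the zinc finger proteins that bind them. The sequences come from RefSeq on GRCm38.p6, whereas the reads were aligned to GRCm39, and where several starts are listed the first was taken. Capitals mark the E-box CACGTG and the CCAAT box (CCAAT or ATTGG), searched on both strands.
Ehmt1 (GLP), chr2:24919610-24919859, minus strand: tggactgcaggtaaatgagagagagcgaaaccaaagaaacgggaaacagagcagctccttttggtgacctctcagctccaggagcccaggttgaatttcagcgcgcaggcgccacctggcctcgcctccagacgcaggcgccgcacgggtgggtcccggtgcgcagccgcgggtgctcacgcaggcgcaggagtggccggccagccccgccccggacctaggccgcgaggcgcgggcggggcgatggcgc
Ehmt2 (G9a), chr17:34898224-34898473, plus strand: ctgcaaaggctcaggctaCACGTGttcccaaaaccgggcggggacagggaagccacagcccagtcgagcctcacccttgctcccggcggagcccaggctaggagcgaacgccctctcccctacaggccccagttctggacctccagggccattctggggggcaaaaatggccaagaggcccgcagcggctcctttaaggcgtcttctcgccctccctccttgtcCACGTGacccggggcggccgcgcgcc
Wiz, chr17:32389407-32389656, minus strand: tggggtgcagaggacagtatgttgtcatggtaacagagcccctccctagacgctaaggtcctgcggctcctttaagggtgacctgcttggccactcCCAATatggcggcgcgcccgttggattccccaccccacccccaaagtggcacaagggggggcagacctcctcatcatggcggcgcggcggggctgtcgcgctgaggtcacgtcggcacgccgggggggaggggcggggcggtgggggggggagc
Zfp644, chr5:106696831-106697080, minus strand: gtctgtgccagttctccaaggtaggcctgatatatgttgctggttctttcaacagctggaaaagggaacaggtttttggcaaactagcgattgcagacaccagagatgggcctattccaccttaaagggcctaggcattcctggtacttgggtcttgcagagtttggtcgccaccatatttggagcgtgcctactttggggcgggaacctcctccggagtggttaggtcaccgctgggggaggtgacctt
Of these windows, those of Ehmt1, Ehmt2 and Wiz were 69.2%, 67.6% and 68.4% GC with 26, 18 and 18 CpG dinucleotides. The Zfp644 window was 53.2% GC with 6 CpG, at the level of the median of all 32851 windows in the table (52.4% GC, 6 CpG). The terms GC-rich and GC-poor below are by transcript GC. By window, Suv39h2 and Setdb2, GC-poor by transcript, were at 69.6% and 65.6% GC. Ehmt2 alone of the 8 members held the E-box, in 2 copies, a motif in 6.02% of all windows. The Wiz window held 1 CCAAT box, a motif in 33.8% of all windows. Among the other members' windows, those of Suv39h1 and Setdb2 held 2 CCAAT boxes each and that of Setdb1 held 1. The GC box GGGCGG was in all 4 windows shown, against 32.7% of all windows. None of the 8 windows held TATAAA, which 12.4% of all windows did. A match is a description of these letters only.

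Every member was expressed in the adult ganglion, and their levels spanned more than an order of magnitude. Per kilobase of merged exon, Ehmt2 was the most abundant at 15.5 ± 1.64 CPM (SD, n = 12 libraries), followed by Setdb1 at 6.52 ± 0.414. Next came Wiz at 4.82 ± 0.554, Zfp644 at 4.77 ± 0.372 and Ehmt1 at 4.00 ± 0.261 CPM per kilobase. Suv39h1 was at 2.45 ± 0.199, Setdb2 at 1.88 ± 0.240 and Suv39h2, the lowest, at 1.15 ± 0.163 CPM per kilobase. Each gene stood above the next in all 12 libraries, except that Suv39h1 was above Setdb2 in 11 and Wiz above Zfp644 in 6, so the order of those zinc finger genes is not separated by their spread. Within the heterodimer, G9a transcripts were 3.88 ± 0.320 times those of GLP per kilobase (SD, n = 12, range 3.17 to 4.24). The ratio of Setdb1 to Setdb2 was 3.52 ± 0.481 and that of Suv39h1 to Suv39h2 was 2.17 ± 0.348. The total counts behind these levels ran from 1097 for Suv39h2 to 18804 for Ehmt2, and the lowest single count was 68, in Suv39h2. Lengths are those of GENCODE models on GRCm38, and a gene whose transcripts in the ganglion use only some of these exons would be set too low.

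None of the 8 genes passed the test of a change after Prdm12 was removed. The members' log2 fold changes, iKO over control in all 12 libraries, ran from -0.12 to 0.064, with 4 above and 4 below 0 and a median of 0.0015. The median over all 16637 genes tested was 0.0011. No member passed an adjusted p of 0.05 (edgeR quasi-likelihood test, Benjamini-Hochberg over all genes), where 0.379% of all genes did (63 genes, 0.174% higher and 0.204% lower in iKO). No member reached an unadjusted p under 0.05 either, which 10.9% of all genes did, and DESeq2 and limma-voom called 0 members. In none of the 8 were the iKO and control groups apart, as they were in 1.2% of all genes (0.679% higher and 0.523% lower in iKO). The members' 95% confidence intervals lay between a 0.803-fold level, the lower limit of Wiz, and a 1.23-fold level, the upper limit of Suv39h2.

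**Figure D1:**
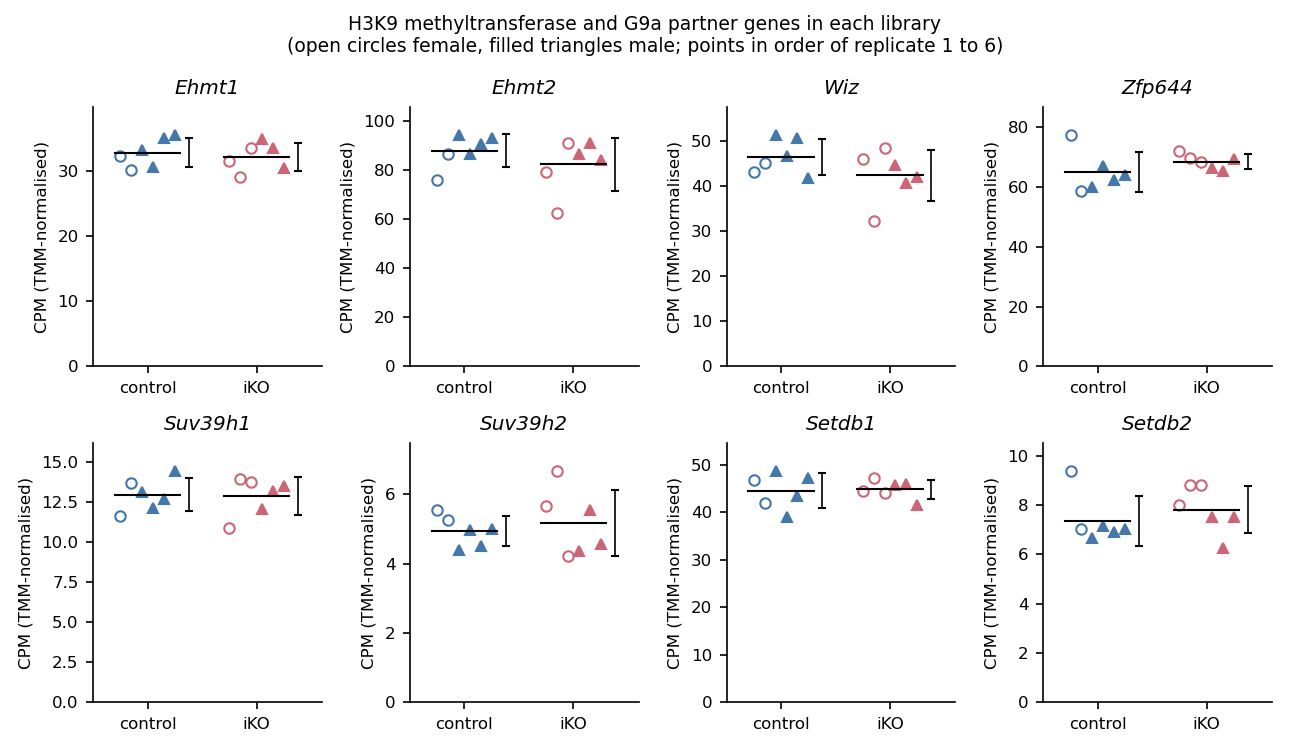
TMM-normalised CPM of the 8 genes in each library (vertical axes, from 0), controls in blue and iKO in red, females as open circles and males as filled triangles, with the group mean as a line and the SD as a bar. The groups overlap in every panel, and the lowest points of Ehmt2 (62.4 CPM) and Wiz (32.4 CPM) and the highest of Suv39h2 (6.68 CPM) all belong to iKO 2.

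Ehmt2 (ENSMUSG00000013787, chromosome 17), which encodes G9a, was at 76.1 to 94.4 CPM in the controls (median 88.6) and at 62.4 to 90.9 CPM in the iKO animals (median 85.3). By animal, controls 1 to 6 had 76.1, 86.5, 94.4, 86.6, 90.6 and 93.2 CPM, and iKO 1 to 6 had 79.4, 62.4, 90.9, 86.7, 90.9 and 84.0 CPM. The low ends were set by control 1 and iKO 2, and the other libraries lay close together. This gave a log2 fold change of -0.065 ± 0.075 (SE, 95% confidence interval -0.23 to 0.098, adjusted p = 0.80, edgeR). With 1 library left out it ran from -0.11 (without iKO 3) to -0.016 (without iKO 2).

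Ehmt1 (ENSMUSG00000036893, chromosome 2), which encodes GLP, varied less. Controls had 32.2, 30.2, 33.2, 30.6, 35.0 and 35.5 CPM and iKO animals 31.5, 29.1, 33.4, 34.9, 33.5 and 30.4 CPM, with medians of 32.7 and 32.5. Its coefficient of variation over the 12 libraries was 6.53%, against 10.6% for Ehmt2. Its log2 fold change was -0.012 ± 0.057 (SE, interval -0.14 to 0.11, adjusted p = 0.96, edgeR).

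The balance of the 2 transcripts was tested as the log2 ratio of Ehmt1 to Ehmt2 counts in each library, which does not measure the protein dimer. It was -1.42 ± 0.109 (SD, n = 6) in controls and -1.35 ± 0.136 (n = 6) in iKO. The difference of 0.073 was within this spread (exact permutation test over all assignments of the 12 libraries, two-sided p = 0.351). The ratio was highest in iKO 2 and next highest in control 1. Without iKO 2 the difference was 0.024 (exact permutation p = 0.684).

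Wiz (ENSMUSG00000024050, chromosome 17), the zinc finger protein that binds both subunits of the dimer, had the largest change in size of the 8. Controls had 43.2, 45.3, 51.5, 46.8, 50.7 and 41.9 CPM (median 46.1) and iKO animals 46.2, 32.4, 48.6, 44.7, 40.7 and 42.1 CPM (median 43.4). iKO 2 and iKO 5 lay below the range of the controls and the other 4 within it. For Wiz the log2 fold change was -0.12 ± 0.090 (SE, interval -0.32 to 0.073, adjusted p = 0.67, edgeR). With 1 library left out it ran from -0.17 (without iKO 3) to -0.069 (without iKO 2). Wiz shares 2040 exon bases with the lincRNA Gm26858 on the opposite strand, for which no count was found. The effect of this overlap on the Wiz count is not known.

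Zfp644 (ENSMUSG00000049606, chromosome 5), another zinc finger partner of the dimer, had control values of 77.5, 58.8, 60.1, 67.1, 62.4 and 64.1 CPM (median 63.2). The iKO values were 72.2, 69.6, 68.2, 66.2, 65.4 and 69.5 CPM (median 68.9). Control 1 was the highest of the 12, and the iKO values lay within the range of the controls. Zfp644 had a log2 fold change of 0.064 ± 0.060 (SE, interval -0.065 to 0.19, adjusted p = 0.74, edgeR). With 1 library left out it ran from 0.0089 (without control 2) to 0.13 (without control 1).

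The heterochromatin enzymes gave values near 0 change. Suv39h1 (ENSMUSG00000039231), an X-linked gene, had 11.6, 13.7, 13.1, 12.1, 12.7 and 14.4 CPM in controls and 10.9, 13.9, 13.7, 12.1, 13.2 and 13.5 CPM in iKO animals. The medians were 12.9 and 13.3 CPM and the log2 fold change was -0.0049 ± 0.082 (SE, interval -0.18 to 0.17, adjusted p = 0.99, edgeR). Its paralog Suv39h2 (ENSMUSG00000026646, chromosome 2) was the scarcest member. Controls had 5.54, 5.27, 4.38, 4.98, 4.51 and 5.00 CPM and iKO animals 5.67, 6.68, 4.23, 4.36, 5.54 and 4.58 CPM. iKO 2 was the highest of the 12 and iKO 3 the lowest, so the iKO values enclosed those of the controls. Its log2 fold change was 0.031 ± 0.12 (SE, interval -0.23 to 0.29, adjusted p = 0.95, edgeR). The libraries keep no strand, and Suv39h2 shares 357 exon bases with Dclre1c on the opposite strand. Suv39h1 shares 767 exon bases with the antisense gene Gm14820, which had 38 counts in total. The counting options are not given, so the effect of these overlaps on the Suv39h2 and Suv39h1 counts is not known.

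Setdb1 (ENSMUSG00000015697, chromosome 3), whose product is brought to retroelements by KAP1, had 46.8, 42.0, 48.7, 38.9, 43.4 and 47.3 CPM in controls and 44.5, 47.2, 44.0, 45.7, 46.0 and 41.6 CPM in iKO animals. The iKO values all lay inside the control range, with medians of 45.1 CPM in both groups. The log2 fold change was 0.0079 ± 0.059 (SE, interval -0.12 to 0.14, adjusted p = 0.98, edgeR). Setdb1 shares 75 exon bases with Cers2, a gene of higher count on the opposite strand. Setdb2 (ENSMUSG00000071350, chromosome 14), a relative of Setdb1, had 9.39, 7.02, 6.67, 7.14, 6.92 and 7.02 CPM in controls and 8.02, 8.80, 8.83, 7.50, 6.27 and 7.51 CPM in iKO animals. Control 1 again stood above the other controls, and the medians were 7.02 and 7.76 CPM, a log2 fold change of 0.043 ± 0.092 (SE, interval -0.155 to 0.24, adjusted p = 0.90, edgeR).

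**Figure D2:**
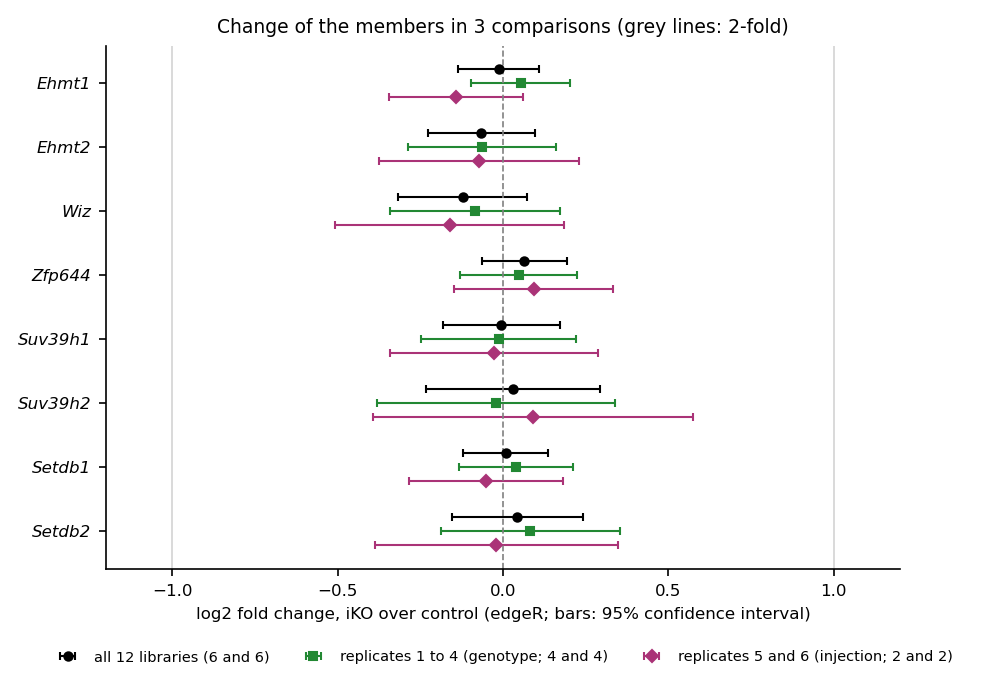
Log2 fold change of each gene (horizontal axis, iKO over control, edgeR) with its 95% confidence interval in all 12 libraries (black), in replicates 1 to 4 (green) and in replicates 5 and 6 (purple). Every interval includes 0 and none reaches the grey lines of a 2-fold change; the widest is that of Suv39h2 in replicates 5 and 6, from -0.39 to 0.57.

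The controls were of different kinds, so the comparison was also made within each replicate set. In replicates 1 to 4 all animals received tamoxifen and the genotype differed. Controls 1 and 4 carried Cre and controls 2 and 3 did not, and controls 1 to 3 were Fl/+. The parts of Cre and of the floxed alleles were not separated there. In replicates 5 and 6 all animals were Fl/Fl males with Cre and the injection differed. In replicates 1 to 4 (4 against 4) the members' log2 fold changes ran from -0.084 (Wiz) to 0.083 (Setdb2), and 0 of 8 passed, against 0.114% of all genes (0 of 8 at an unadjusted p under 0.05, against 7.93%). In replicates 5 and 6 (2 against 2) they ran from -0.16 (Wiz) to 0.093 (Zfp644), and 0 of 8 passed, against 0.00601% of all genes (0 of 8 at an unadjusted p under 0.05, against 7.87%). Prdm12 was lower in both sets, at -2.67 (adjusted p = 0.00115, edgeR) and -2.49 (adjusted p = 0.0509, which misses the threshold).

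Ehmt1 was the member whose values differed most between these sets. Its log2 fold change was 0.054 in replicates 1 to 4 and -0.14 in replicates 5 and 6, where the corn oil controls were at 35.3 ± 0.340 CPM (SD, n = 2) and the iKO animals at 32.0 ± 2.16 CPM (n = 2). The difference of these effects was 0.19 (unadjusted p = 0.118, adjusted p = 1, edgeR interaction contrast). The other members' differences ran from -0.11 to 0.10. None of the 8 passed the test of the difference, and neither did any gene (0% of all genes called, with 3.41% at an unadjusted p under 0.05), though DESeq2 called 5 genes there.

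Male and female animals were compared in the same fit (7 males, 5 females). No member passed, against 0.108% of all genes (0.0301% higher and 0.0781% lower in males). At an unadjusted p under 0.05 there was 1 of 8 members, against 10.2% of all genes. That member was Setdb2, which was at 7.01 ± 0.443 CPM in males (SD, n = 7) and 8.41 ± 0.919 CPM in females (n = 5). Its log2 fold change, male over female, was -0.26 ± 0.092 (SE, unadjusted p = 0.0162, adjusted p = 0.44, edgeR). Ehmt2 was at 89.5 ± 3.82 CPM in males and 79.0 ± 10.98 CPM in females, a log2 fold change of 0.17 ± 0.077 (unadjusted p = 0.0504, adjusted p = 0.49, edgeR). Without control 1 and iKO 2, both female, the values were -0.16 for Setdb2 and 0.050 for Ehmt2. The X-linked Suv39h1 was at 13.01 CPM in males and 12.8 CPM in females (log2 fold change 0.027, adjusted p = 0.92, edgeR).

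Several extreme values of the GC-rich and GC-poor members fell in iKO 2 and control 1, the libraries poorest in GC-rich transcripts. A relation to base composition over all 12 libraries was not tested. Library base composition was summarised as a GC tilt, the median log2 deviation of the 25% of tested genes with the highest transcript GC minus that of the 25% with the lowest. The tilt was -0.38 in iKO 2 and -0.19 in control 1, the libraries of lowest depth, and -0.077 to 0.16 in the other 10. Ehmt2 transcripts are 60.8% GC, above 97.0% of the genes with a value, and Wiz transcripts are 56.8% GC. At the other end are Suv39h2 at 43.0%, Setdb2 at 42.6% and Zfp644 at 39.2% GC, the last above 4.65% of genes. iKO 2 was the lowest of the 12 libraries for Ehmt2, Wiz and Ehmt1 and the highest for Suv39h2. Ehmt1 transcripts are 51.2% GC, above 58.95% of genes, and so not among the GC-rich. Control 1 was the highest for Setdb2 and Zfp644 and the next to lowest for Ehmt2. The part of depth or RNA quality in this was not tested. With the tilt as a covariate, chosen after seeing the data, the log2 fold change of Wiz was -0.074 ± 0.056 and that of Ehmt2 -0.022 ± 0.044 (SE), with adjusted p of 0.66 and 0.89 (edgeR).

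**Figure D3:**
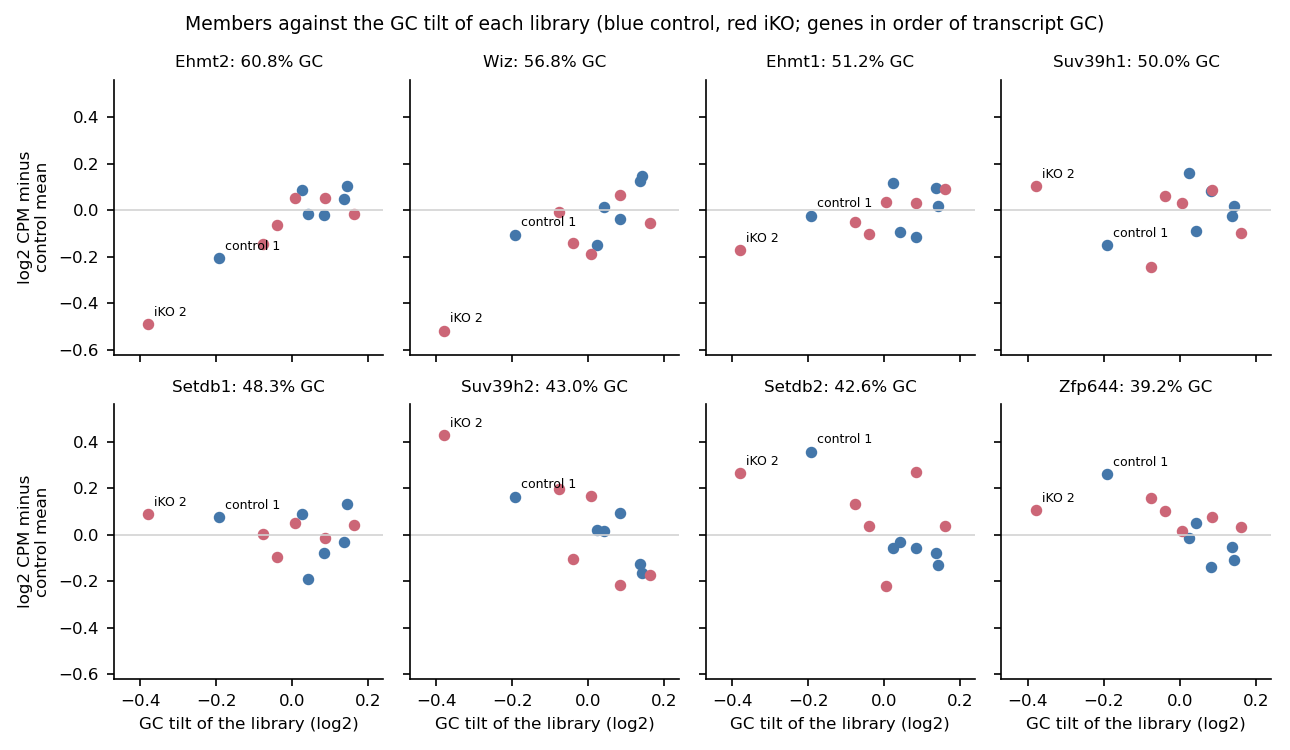
Log2 CPM of each gene minus its control mean (vertical axes) against the GC tilt of the library (horizontal axes, log2), controls in blue and iKO in red, panels in order of transcript GC. In iKO 2 and control 1, at tilts of -0.38 and -0.19, Ehmt2 and Wiz are below their control means and Suv39h2, Setdb2 and Zfp644 above them.

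The members were also compared with each other across libraries. Over 28 pairs, the residuals of log2 CPM after group and sex gave 3 pairs with the lowest adjusted p, 0.0552, so no pair passed. Ehmt2 and Wiz, whose products act in one complex, had Pearson's r = 0.765 (permutation p = 0.00591) and Spearman's rho = 0.531 (permutation p = 0.0792) over 12 libraries, and r = 0.17 without iKO 2 and iKO 3, the libraries farthest from the median of Ehmt2. Without iKO 2 alone r was 0.528, and the relation of Ehmt2 and Wiz did not hold without both. Suv39h2 and Wiz had r = -0.807 (permutation p = 0.00224) and rho = -0.776 (permutation p = 0.00448), and r = -0.524 without the 2 farthest libraries, again iKO 2 and iKO 3 (-0.712 without iKO 2 alone). Setdb2 and Zfp644, both GC-poor, had r = 0.757 (permutation p = 0.0053) and rho = 0.601 (permutation p = 0.043), and r = 0.672 without the 2 farthest, control 2 and iKO 5 (0.774 without iKO 2 alone). Suv39h2, also GC-poor, had r = -0.173 with Setdb2 and 0.205 with Zfp644. The subunits of the dimer, Ehmt1 and Ehmt2, had r = 0.551 (permutation p = 0.0572, adjusted p = 0.32) and rho = 0.378.

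Genes most like each member were taken by the same residuals over 12 libraries, among 14155 genes, as a description with no p; all points share depth and base composition. Ehmt2 was most like Prrc2a (r = 0.979) and Boc (0.978), and Wiz most like Mroh1 (0.974) and Usp19 (0.971). Ehmt1 was most like Fam13c (0.934) and Lamc1 (0.929), and Zfp644 most like Alg10b (0.961) and Psd3 (0.954). Suv39h1 was most like BE692007 (0.924) and Trp53bp2 (0.921), and Suv39h2 most like Hspd1 (0.943) and Fxr1 (0.936). Setdb1 had the weakest likeness, to Wnk1 (0.884) and Gpr160 (0.861), and Setdb2 was most like Adarb2 (0.947) and Sepsecs (0.911).

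The wider H3K9 system was also without a called gene. Of 13 readers and HP1 partners, which bind the mark or anchor the enzymes, 0 passed in either direction in all 12 libraries (edgeR, background 0.379%), with a median log2 fold change of -0.036 and 1 gene at an unadjusted p under 0.05, against 10.9% of all genes. That gene was Atf7ip, which stabilises SETDB1 (log2 fold change -0.12, adjusted p = 0.37), and the next by p was Trim28, which encodes KAP1 (-0.11, adjusted p = 0.52). Of 11 H3K9 demethylases 0 passed, 0 reached an unadjusted p under 0.05 and the median was -0.034. The smallest p values there were those of Kdm4d (0.27, adjusted p = 0.58) and Phf2 (-0.14, adjusted p = 0.61). Of 21 other histone lysine methyltransferases 0 passed, with a median of -0.031, 5 above and 16 below 0 (8403 above and 8234 below over all genes), and 2 at an unadjusted p under 0.05, near the 10.9% of all genes. These were Kmt5a, the H4K20 monomethyltransferase (-0.14, adjusted p = 0.26), and Smyd3 (-0.19, adjusted p = 0.36). DESeq2 and limma-voom likewise called 0 genes in these lists.

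Among 12 corepressors that work with G9a or GLP, 0 passed (edgeR, DESeq2 and limma-voom), 2 reached an unadjusted p under 0.05, in opposite directions (10.9% of all genes did), and the median was -0.050. Rest, the repressor of neuronal genes that recruits G9a, was at 15.3 CPM in controls and 13.5 CPM in iKO (log2 fold change -0.17, adjusted p = 0.45, edgeR). Adnp was at 1.4 CPM in controls and 2.2 CPM in iKO (log2 fold change 0.67, adjusted p = 0.38, edgeR). Its count is low, and it is uncertain since its exons lie within a readthrough gene on the same strand. Of 10 germline genes known to be silenced by H3K9 methylation, only Sycp3 and Ddx4 passed the filter on low counts, with log2 fold changes of 0.30 (adjusted p = 0.73) and 0.057. By replicate set the values were -0.14 for Sycp3 and -0.35 for Ddx4 in replicates 1 to 4, and 0.92 and 0.88 in replicates 5 and 6. The difference of the sets had unadjusted p of 0.0507 for Sycp3 and 0.00428 for Ddx4 and an adjusted p of 1 for both (edgeR). The 10 summed to 4.29 to 7.80 CPM in controls and 4.35 to 8.62 CPM in iKO, and Asz1 was at 0 counts in every library.

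Of 6 genes known to be silenced through G9a in injured sensory ganglia, 0 passed in edgeR and 4 reached an unadjusted p under 0.05, all lower in iKO, with a median log2 fold change of -0.24. Over all 16637 genes 10.9% reached that p, 998 of them lower in iKO, and the median was 0.0011. The list was chosen with earlier results of these data known, so its count and median are a description and not a test. Kcna4, which encodes the A-type potassium channel Kv1.4, had 23.4, 25.2, 26.2, 25.3, 28.6 and 22.3 CPM in controls and 19.8, 20.0, 18.0, 21.7, 17.5 and 19.2 CPM in iKO animals. Each iKO library lay below each control, as in 0.523% of all genes. The log2 fold change was -0.37 ± 0.073 (SE, interval -0.53 to -0.21), and its adjusted p of 0.0522 in edgeR missed the threshold. DESeq2 gave 0.00164 and limma-voom 0.0497, and over all alternatives the adjusted p ran from 0.00164 to 0.329. Kcnd2, the Kv4.2 channel, was at 4.03 and 3.01 CPM in controls and iKO (-0.44, adjusted p = 0.45), and Kcnma1, the BK channel, at 62.7 and 56.2 CPM (-0.19, adjusted p = 0.31). Oprm1, the mu opioid receptor, was at 18.1 and 15.2 CPM (-0.29, adjusted p = 0.44). Cnr1, the CB1 cannabinoid receptor, had a log2 fold change of 0.12 (adjusted p = 0.48, edgeR). Beside these neuronal genes, 1 of 8 sensory neuron markers passed as lower in iKO (edgeR), against 0.204% of all genes, and DESeq2 called 2 of the 8 as lower. The markers had a median log2 fold change of -0.020, with 3 above and 5 below 0. The part of the neuron content in the values of Kcna4 was not tested.

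**Figure D4:**
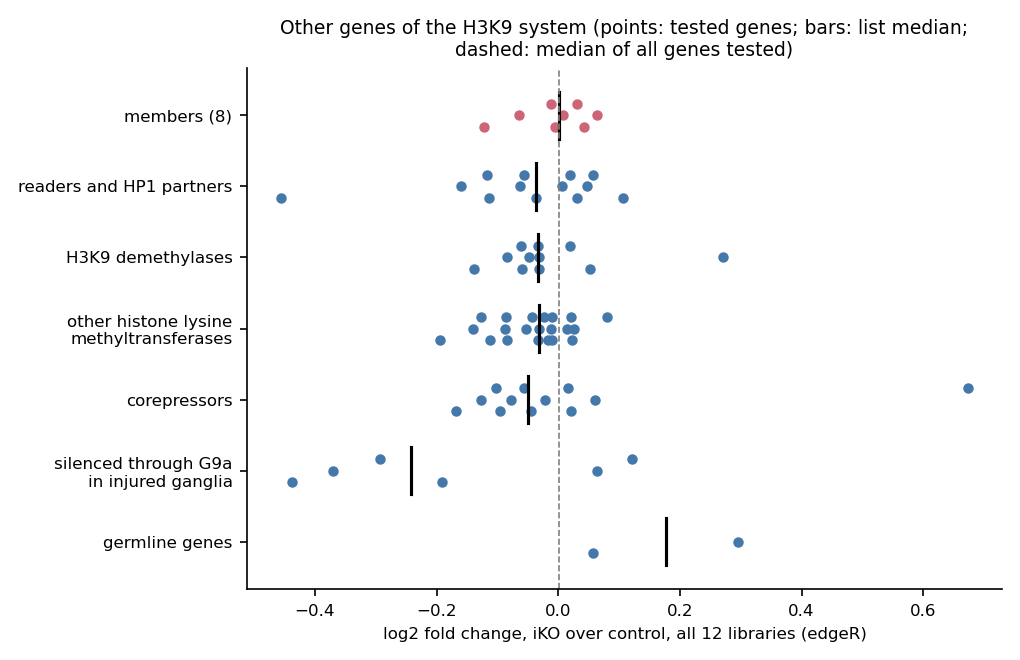
Log2 fold change, iKO over control in all 12 libraries (horizontal axis, edgeR), of each tested gene of the 8 enzymes and partners (red) and of the other lists (blue), with each list's median as a bar and the median of all genes as a dashed line. The red points lie between -0.12 and 0.064, and the list of genes silenced through G9a in injured ganglia has a median of -0.24, the lowest of the 7 lists drawn. The lists were chosen with earlier results of these data known.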

How the data were processed

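Libraries were made from polyadenylated RNA with a TruSeq kit that keeps no strand, per the labels. The tools listed in the submitters' processing notes are STAR 2.7.8a, featureCounts 2.0.1 and bcl2fastq 2.20.0.422, with the build GRCm39. Neither annotation release nor counting options is given in the sources used here. The deposited values are raw counts per gene, not normalized by the authors, 1 file per library.

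Symbols, lengths and transcript GC came from GRCm38 tables, matched by Ensembl identifier: 52083 of 55416 identifiers had a symbol, and the rest held 0.274% of counts. GC was known for 16610 tested genes (99.8%).

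The test was edgeR 4.0.16 under R 4.3.3: filterByExpr by group (16637 genes), TMM (factors 0.969 to 1.02), quasi-likelihood test with sex as covariate, Benjamini-Hochberg adjustment over all genes tested, threshold 0.05. Replicate sets were contrasts of 1 fit over 12 libraries. Standard errors are the fold change over the root of its F statistic, and intervals are 95%. Alternatives used DESeq2 1.42.0, limma 3.58.1, RLE scaling, other filters, other covariates and libraries left out. The script was tested on simulated data. Pairs of members were tested with 100000 permutations.

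A count of 0 allows up to 0.124 CPM in the deepest and 0.227 CPM in the shallowest library (3 counts, counting error only). Libraries of a group differed by more than sampling noise in all 30 pairs.

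The members and lists were chosen with earlier results of these data known. By rule, all 8 members were named, from each other list those past the threshold (at most 4) or else the 2 of smallest p, and for each member the 2 genes most like it. Some genes of these lists are not reported here.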

Additional observations from a re-analysis of the deposited data

Results flagged for a closer look

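In 7 of 86 group values searched, 1 library stood apart from the other 5 of its group by Dixon's criterion, where chance gives about 1 in 20. Among the 8 members this was met once, by Setdb2 in control 1, at 9.39 CPM against 7.14 CPM in the next control. The GC tilt of control 1 also stood apart among controls, at -0.19 (nearest control 0.025). Rest was lower in control 4, at 13.03 CPM, than in the nearest control at 15.1 CPM. Ptgds, made by meningeal cells, was at 434 CPM in iKO 6 and 697 CPM in the nearest iKO library. Myh4, a myosin of skeletal muscle, was at 292 CPM in iKO 5 and 65.5 CPM in the next. The proliferation genes Mki67 and Cdk1 were at 51.9 and 6.74 CPM in control 6, against 9.86 and 1.81 CPM in the next controls.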

How the results depend on the processing

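The widest interval in all 12 libraries was that of Suv39h2, the member of lowest count, and the part of depth in it was not tested. In all 5 comparisons 0 members passed under every alternative run. Of 784 member values under alternatives, 69 had the opposite sign to the first, 52 of them with 1 library left out, and 0 passed the threshold. The cause was not tested.

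With 1 library left out, log2 fold changes in all 12 libraries ran from -0.034 to 0.020 for Ehmt1, -0.024 to 0.036 for Setdb1, -0.024 to 0.11 for Setdb2, -0.043 to 0.030 for Suv39h1 and -0.031 to 0.092 for Suv39h2. In replicates 1 to 4 they ran from -0.14 to 0.016 for Ehmt2, -0.0033 to 0.087 for Setdb1, -0.015 to 0.21 for Setdb2, -0.080 to 0.051 for Suv39h1, -0.12 to 0.081 for Suv39h2, -0.15 to 0.0074 for Wiz and -0.047 to 0.16 for Zfp644. In replicates 5 and 6 they ran from -0.14 to 0.019 for Setdb1, -0.15 to 0.093 for Setdb2, -0.12 to 0.066 for Suv39h1 and -0.070 to 0.22 for Suv39h2. The difference between the sets ran from -0.059 to 0.088 for Ehmt2, -0.0074 to 0.24 for Setdb2, -0.076 to 0.11 for Suv39h1, -0.24 to 0.052 for Suv39h2, -0.056 to 0.22 for Wiz and -0.13 to 0.069 for Zfp644. Male over female, they ran from -0.042 to 0.016 for Setdb1, -0.022 to 0.062 for Suv39h1 and -0.022 to 0.11 for Wiz.

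Under other settings the sign changed as follows. With tamoxifen-injected animals only, Ehmt1 was at 0.028 and Suv39h1 at 0.024. With controls that carry Cre only, Suv39h1 was at 0.032, Suv39h2 at -0.0030, Setdb2 at -0.039 and Zfp644 at -0.012. With the GC tilt as covariate Ehmt1 was at 0.0018 and Suv39h2 at -0.035, and without control 1 and iKO 2 they were at 0.0092 and -0.0021. Male over female, Setdb1 was at 0.0024 with no filter, 0.014 with the tilt and 0.036 without those libraries, Wiz at -0.099 and -0.068, and Zfp644 at 0.0012 without them. The tilt and the exclusion of control 1 and iKO 2 were chosen after seeing the data.

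Counts over all genes moved more. In all 12 libraries 63 genes passed, and 138 with no filter, 332 with DESeq2, 28 with tamoxifen-injected animals only, 13 with controls that carry Cre only, 24 without control 1 and iKO 2, and 23 to 88 with 1 library left out. In replicates 1 to 4 the count of 19 became 621 with no filter, 137 with DESeq2, 3 without control 1 and iKO 2, 12 in a fit of those 8 libraries alone and 2 to 18 with 1 left out. In replicates 5 and 6 the count of 1 became 2 with RLE scaling or a stricter filter, 1014 with no filter, 69 with DESeq2 and 1 to 26 with 1 left out. For the difference the count of 0 became 578 with no filter, 5 with DESeq2 and up to 15 with 1 left out. For sex the count of 18 became 33 with no filter, 50 with DESeq2 and 11 to 15 with 1 left out.

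Same-numbered libraries of the 2 groups correlated at -0.407 to 0.287 in their deviations from the group means, and 1 of 12 libraries was closest to its own number. Sex was not removed from these deviations, and the labels do not say whether the numbers pair the animals. These values cannot decide whether animals of one number shared a litter or batch. With the replicate block 15 genes passed in all 12 libraries, 8 in replicates 1 to 4 and 0 in replicates 5 and 6, and Suv39h2 in replicates 1 to 4 was at 0.070. Under the block, exact sign flips of the Ehmt1 to Ehmt2 ratio gave p = 0.50 for the same difference of 0.073.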

Other observations

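The marker lists describe RNA of cell types in these libraries, where cell number and RNA per cell cannot be told apart. Fibroblast and meningeal markers summed to 1914 to 3490 CPM in controls and 1319 to 2476 CPM in iKO, and 0 of 6 passed (edgeR, Ptgds -0.98, adjusted p = 0.064, and Dcn -0.28, adjusted p = 0.082, on the log2 scale). Of the 6 Schwann cell markers Pmp22, a myelin protein, rose (0.36, adjusted p = 0.018, edgeR), and their sums were 7168 to 12350 CPM in controls and 8540 to 10820 CPM in iKO. Satellite glia markers summed to 3957 to 6967 CPM in controls and 4076 to 5327 CPM in iKO, with 0 of 5 passed (2 above and 3 below 0, among them Kcnj10 at -0.41 and Apoe at 0.12). No tested marker of macrophages (C1qa -0.32, Csf1r -0.34), lymphocytes or endothelium (Cdh5 -0.46, Kdr 0.058) passed. Skeletal muscle markers summed to 51.6 to 186 CPM in controls and 57.2 to 694 CPM in iKO, and 0 passed (Myh4 3.34, adjusted p = 0.16, Neb 0.63).

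Markers of dividing cells summed to 99.7 CPM in control 6 and 45.4 CPM in iKO 5, and to 8.4 to 27.6 CPM in the other 10 libraries, with 0 of 5 passed (Mki67 -0.49, Cdk1 -0.33). In control 6 the chromatin genes Uhrf1 and Ezh2, picked after their values were seen, were at 6.74 and 11.3 CPM. The member values of control 6 lay inside the range of the other controls except for Ehmt1 (35.5 CPM) and Suv39h1 (14.4 CPM), which were the highest, and Wiz (41.9 CPM), the lowest.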
